A study of Drosophila melanogaster with 18 samples.

Results

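The mRNAs described here are those of 10 genes of the core cell death pathway of *Drosophila*, chosen by name for their role in the pathway, with earlier results of these data known, out of 15602 genes in the RNA-seq table of the study. They are the activators *rpr* (reaper), *hid* (head involution defective), *grim* and *skl* (sickle), the caspases *Dronc*, *Drice* and *Dcp-1*, the adaptor *Dark*, and the inhibitors *Diap1* and *Buffy*. All 10 were found in the table by their FlyBase identifiers. The study asked how transcription is reprogrammed by heat shock (HS), and its RNA-seq samples compared S2 cells before HS (NHS) with S2 cells kept at 37 °C for 30 min, without RNAi in either condition. There were 2 conditions with 2 biological replicate libraries each, 4 libraries in all, made from poly(A)-selected RNA with a strand-specific protocol. HS was started by adding warmed serum-free medium, and the sources used here do not say whether NHS cells received medium without heat. S2 is an embryonic line with haemocyte (blood cell) properties, grown as 1 established line, so the replicates are cultures of the same cells and not animals.

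In the fly, caspases are made as inactive precursors and are held in check by Diap1, a ubiquitin ligase that binds them and marks them for removal. Rpr, Hid, Grim and Skl bind Diap1 through a short motif at their start and so release the caspases. Their genes are mostly controlled at the level of transcription. The initiator caspase Dronc is then assembled with Dark, the counterpart of mammalian Apaf-1, and cleaves the effector caspases Drice and Dcp-1, which take the cell apart.

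Levels are given as FPKM, in which fragment numbers are scaled to the length of the transcript and to the size of the library. FPKM is a relative unit, and because it is scaled for length, levels can be set side by side between genes. Fold changes are differences of log2(FPKM + 1) between HS and NHS, tested with limma over the 7815 genes whose 4 libraries averaged 1 FPKM or more. A gene was said to have risen or fallen at an adjusted p under 0.05 (Benjamini-Hochberg over the 7815 genes), and results at 0.001, the threshold of the study's methods, are given beside it. In these bulk libraries, fewer cells holding an mRNA and less of that mRNA per cell cannot be told apart.

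The HS label was borne out by the chaperone genes *Hsp70Bc*, *Hsp68* and *Hsp83*. *Hsp70Bc* went from 0.413 and 0.436 FPKM in NHS cells to 314 and 305 FPKM after HS, *Hsp68* from 22.1 and 20.3 to 10271 and 9667 FPKM, and *Hsp83* from 776 and 821 to 6748 and 6454 FPKM. All 3 rose (limma adjusted p from 0.000126 to 0.000832). Of 10 haemocyte markers, 9 averaged 1 FPKM or more, the exception being *NimC1*, and the summed level of the list was 364 and 465 FPKM in NHS cells and 380 and 451 FPKM after HS. Among markers of other tissues, all of those listed for muscle, fat body and gut were under 1 FPKM, and the neuronal *elav* and the germline *bam* were above it. The number of fragments per library is not held by the table, but the spacing of the lowest values put the depths at about 100%, 77.0%, 60.1% and 69.3% of the deepest library (NHS replicates 1 and 2, then HS replicates 1 and 2).

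Of the 10 apoptosis mRNAs, 7 were abundant enough to be tested, and 1 of these changed. *Dronc* fell, 0 rose, and 0 passed the stricter 0.001. Over all tested genes, 1.75% rose, 1.56% fell and 3.31% changed in either direction at an adjusted p under 0.05. At 0.001, 0.128% of all tested genes rose and 0 fell. A count of 1 gene of 7 is too few to set against these shares. At an unadjusted p under 0.05, 2 of the 7 were higher after HS (*hid* and *Dcp-1*), against 7.42% of all tested genes, and 3 were lower (*Dronc*, *Drice* and *Dark*), against 10.5% of all tested genes. The median log2 fold change of the 7 was -0.34, and that of all tested genes was -0.02. In each of the 7 the NHS and HS libraries did not overlap, with 2 genes higher and 5 lower after HS. Across all tested genes the groups lay apart in 46.1%, with 20.5% higher and 25.6% lower.

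**Figure D1:**
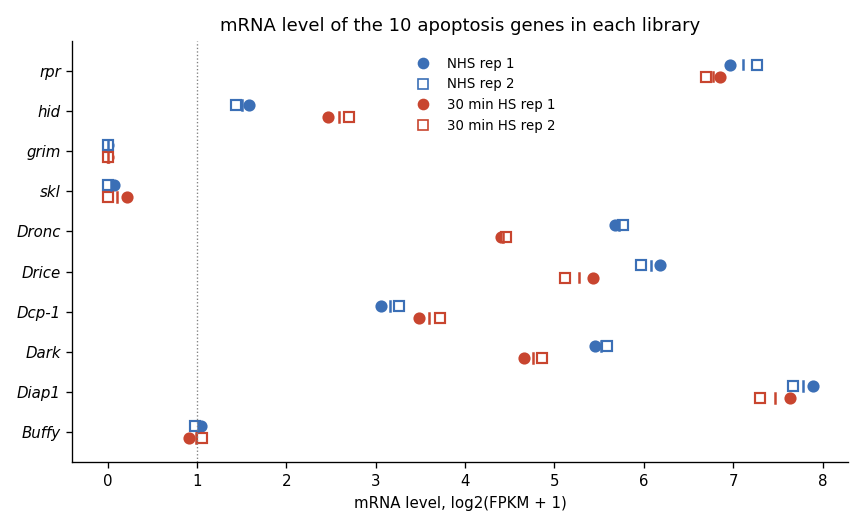
mRNA level of each of the 10 apoptosis genes on the log2(FPKM + 1) scale, with 1 point per library (blue, NHS; red, 30 min HS; circle, replicate 1; square, replicate 2) and a tick at the mean of the log2 values of each condition; the dotted line marks a level of 1 FPKM. *Dronc*, *Drice* and *Dark* sit to the left after HS, *hid* and *Dcp-1* to the right, and *grim*, *skl* and *Buffy* lie at or near the low end in both conditions.

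The activator genes lie near each other on the left arm of chromosome 3 (3L), all on the minus strand, in the order *hid*, *grim*, *rpr*, *skl*. The Ensembl annotation of the BDGP6 assembly places 4 protein-coding genes between *hid* and *grim*, and 0 between *grim* and *rpr* or between *rpr* and *skl*. All 4 of the genes between *hid* and *grim* were in the table and 0 of them reached a mean of 1 FPKM. Within this stretch the 4 activators differed widely in level, from *rpr*, among the abundant mRNAs of S2 cells, to *grim*, listed at 0.

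*rpr* encodes Reaper and is a gene of 1 exon with a transcript of 901 nt. Its level was 124 and 153 FPKM in the NHS libraries and 114 and 103 FPKM in the HS libraries. Both HS values were below both NHS values, but the nearest values of the conditions, 124 and 114 FPKM, were closer together than the NHS replicates were to each other. The means were 138 ± 20.1 FPKM before and 109 ± 7.84 FPKM after HS (SD, n = 2 each). The log2 fold change was -0.34 (standard error, SE, 0.14, 95% confidence interval -0.72 to 0.04, limma adjusted p = 0.323), which did not pass the test. Before HS, *rpr* was at percentile 90.5 of the levels of all tested genes.

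*hid* encodes the largest of the activators and stood far below *rpr* in every library. It was measured at 1.99 and 1.71 FPKM in NHS cells and at 4.54 and 5.52 FPKM after HS. The conditions were well separated, the gap between them being larger than the difference between replicates of either. The NHS mean was 1.85 ± 0.203 FPKM and the HS mean 5.03 ± 0.692 FPKM (SD, n = 2 each), a ratio of 2.72. The log2 fold change was 1.08 (SE 0.18, 95% confidence interval 0.61 to 1.55, unadjusted p = 0.00265, limma adjusted p = 0.0625), so *hid* missed the threshold, and 273 of the tested genes had a larger rise. Since *hid* is a scarce mRNA, its fold change depended on the pseudocount, and was 1.39 with 0.1 FPKM and 0.55 with 5 FPKM. Leaving aside a replicate block, which is given with the other settings in the closing section and also moved this call, *hid* passed the threshold without a trend in the variance prior (adjusted p = 0.0395) and with robust variance moderation (0.0449). The adjusted p was at most 0.103 in the other settings that kept all 4 libraries, and ranged from 0.166 to 0.286 when 1 library was left out.

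The other activators were not detected or nearly so. *grim* was listed at 0 FPKM in all 4 libraries. *skl* was listed at 0.0477 FPKM in NHS replicate 1 and 0.159 FPKM in HS replicate 1, which is about 1 and 2 fragments by the spacing of the lowest values, and at 0 in both other libraries. *grim* could not be tested. Without the minimum level, the log2 fold change of *skl* was 0.07 (SE 0.09, limma adjusted p = 0.752), and no difference between conditions was detectable at this depth. As a share of the summed FPKM of the 4 activators, *rpr* made up 98.4% and 98.9% in NHS cells and 96.0% and 94.9% after HS. *hid* held 1.58% and 1.11% before and 3.82% and 5.08% after HS.

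*Dronc*, the gene of the initiator caspase, showed the clearest change of the 10. It lies on 3L, on the plus strand, with 2 exons and a transcript of 2015 nt. Its level was 50.1 and 53.6 FPKM in the NHS libraries and 20.1 and 20.9 FPKM in the HS libraries. The replicates of each condition lay close together, and the gap between the conditions was many times larger than the difference between replicates. The mean was 51.9 ± 2.50 FPKM before and 20.5 ± 0.570 FPKM after HS (SD, n = 2 each), a ratio of 0.395. The log2 fold change was -1.30 (SE 0.10, 95% confidence interval -1.56 to -1.04, limma adjusted p = 0.0106). Of the 7815 tested genes, 132 had a larger fall. In order of level, *Dronc* was at percentile 73.9 of the tested genes before HS and at percentile 47.9 after HS.

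The fall of *Dronc* kept its direction in every setting tried, but its call needed all 4 libraries. It passed the threshold in 11 of 11 other settings that kept all libraries (adjusted p from 0.00434 to 0.0205, log2 fold change from -1.53 to -1.16). Leaving out any 1 of the 4 libraries ended the call, at NHS replicate 1 (adjusted p = 0.12), NHS replicate 2 (0.128), HS replicate 1 (0.116) and HS replicate 2 (0.118), while the log2 fold change stayed between -1.35 and -1.25. The call was also lost at the stricter threshold of 0.001, at which 0 of the 7815 tested genes were called lower.

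*Drice* encodes the main effector caspase of the fly and lies on 3R in a single exon. Its level was 71.6 and 61.8 FPKM in NHS cells and 42.2 and 33.8 FPKM after HS. Each HS value lay below both NHS values. The means were 66.7 ± 6.96 and 38.0 ± 5.92 FPKM (SD, n = 2 each). The log2 fold change of -0.80 (SE 0.15, 95% confidence interval -1.22 to -0.39, limma adjusted p = 0.0891) missed the threshold. Besides the replicate block, it passed when the libraries were rescaled to the ribosomal protein mRNAs (adjusted p = 0.0447), and its adjusted p ranged up to 0.118 over the settings with all libraries.

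*Dcp-1*, the second effector caspase gene, was the only caspase among the 3 with higher values after HS. It stood at 7.36 and 8.62 FPKM before and at 10.2 and 12.1 FPKM after HS. The conditions did not overlap, although the distance between their nearest values, 8.62 and 10.2 FPKM, was close to the difference between replicates. The mean was 7.99 ± 0.888 FPKM before and 11.2 ± 1.38 FPKM after HS (SD, n = 2 each), with a log2 fold change of 0.44 (SE 0.15, 95% confidence interval 0.04 to 0.83, limma adjusted p = 0.238). It passed the threshold in 0 of 11 other settings with all libraries. An exon of *Dcp-1* overlaps the gene *pita* on the opposite strand, and the libraries were made to keep strand apart. Exons of *grim*, *Dark* and *Diap1* likewise overlap antisense RNA genes on the opposite strand, and *grim* overlaps a long noncoding RNA gene on its own strand. Whether these overlaps affected the values was not tested.

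*Dark* encodes the adaptor on which Dronc is assembled. It was measured at 42.9 and 47.0 FPKM in NHS cells and at 24.3 and 28.0 FPKM after HS. The conditions lay well apart, and the gap between them was larger than the difference between replicates. The means were 45.0 ± 2.92 and 26.2 ± 2.66 FPKM (SD, n = 2 each). The log2 fold change was -0.76 (SE 0.12, 95% confidence interval -1.08 to -0.44, limma adjusted p = 0.0586), just outside the threshold. Besides the replicate block, *Dark* passed after rescaling to equal total FPKM (adjusted p = 0.0339), after rescaling to the mRNAs of ribosomal proteins (0.0231) and with robust variance moderation (0.0416). With 1 library left out its adjusted p lay between 0.199 and 0.354.

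*Diap1*, the gene of the inhibitor that restrains the caspases, had the highest level of the 10 in every library. It stood at 236 and 203 FPKM before and at 197 and 157 FPKM after HS. The conditions lay apart only narrowly, by 203 against 197 FPKM, less than the difference between replicates. The mean was 219 ± 23.5 FPKM before and 177 ± 28.7 FPKM after HS (SD, n = 2 each), and the log2 fold change of -0.31 (SE 0.16, 95% confidence interval -0.73 to 0.11, limma adjusted p = 0.423) did not pass the test in any setting.

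*Buffy*, a Bcl-2 family gene, was at the edge of the test. Its level was 1.07 and 0.969 FPKM in NHS cells and 0.886 and 1.08 FPKM after HS, and the conditions overlapped. The mean over the 4 libraries was 0.999 FPKM, just under the minimum. Without a minimum its log2 fold change was -0.03 (SE 0.12, limma adjusted p = 0.936). About 8.55 to 16.8 fragments per library lay behind these values, so that only a large difference could have been seen.

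**Figure D2:**
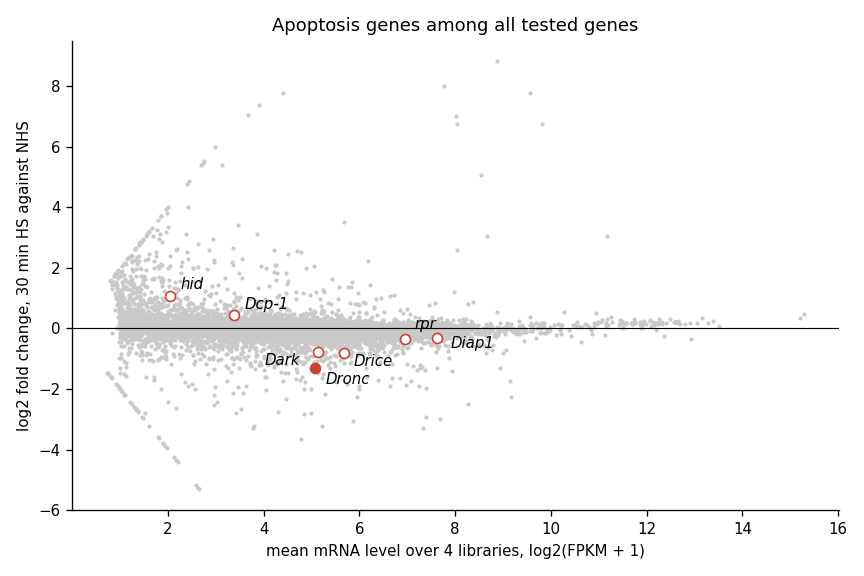
log2 fold change between 30 min HS and NHS (vertical axis) against the mean level over the 4 libraries on the log2(FPKM + 1) scale (horizontal axis) for the 7815 tested genes (grey), with the 7 tested apoptosis genes as circles, filled where the adjusted p was under 0.05. *Dronc* (-1.30) lies at the lower edge of the genes of its level, *Drice* (-0.80) and *Dark* (-0.76) above it, and *hid* (1.08) among the scarce mRNAs, where the spread of all genes is widest.

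The order of the levels was nearly kept by HS. In NHS cells it was *Diap1*, *rpr*, *Drice*, *Dronc*, *Dark*, *Dcp-1*, *hid*, *Buffy*, *skl* and *grim*. From *Diap1* to *Buffy*, no neighbours in this order overlapped between their NHS libraries. After HS the order was the same except that *Dark*, at 24.3 and 28.0 FPKM, stood above *Dronc*, at 20.1 and 20.9 FPKM.

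Ratios taken within a library do not depend on how libraries were scaled to each other, and they are given as values with no test. The ratio of *Dark* to *Dronc* was 0.856 and 0.877 in NHS cells and 1.21 and 1.34 after HS, so that the adaptor mRNA passed from below to above that of the initiator caspase. The ratio of *Diap1* to *Dronc* was 4.71 and 3.78 before and 9.82 and 7.50 after HS. That of *Diap1* to *Drice* was 3.29 and 3.28 before and 4.68 and 4.64 after HS, with replicates almost equal in both conditions. The mRNA of the inhibitor thus stood higher against those of *Dronc* and *Drice* after HS, although its own level was not higher. Against *Dcp-1* it stood lower after HS, as *Diap1* had lower values and *Dcp-1* higher ones (7.36 and 8.62 FPKM before, 10.2 and 12.1 FPKM after HS).

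Among the effector caspases, *Drice* exceeded *Dcp-1* by 9.73 and 7.17 times in NHS cells and by 4.14 and 2.78 times after HS. *Dcp-1* thus made up 9.32% and 12.2% of their summed FPKM before and 19.5% and 26.4% after HS. The summed FPKM of *Dronc*, *Drice* and *Dcp-1* was 129 and 124 in NHS cells and 72.5 and 66.8 after HS. Among the activators, *rpr* exceeded *hid* by 62.3 and 89.4 times before and by 25.1 and 18.7 times after HS. The ratio of *rpr* to *Diap1*, 0.526 and 0.753 before and 0.578 and 0.657 after HS, overlapped between the conditions. The ratio of *hid* to *Diap1* did not overlap, at 0.00845 and 0.00842 before and 0.0230 and 0.0352 after HS.

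**Figure D3:**
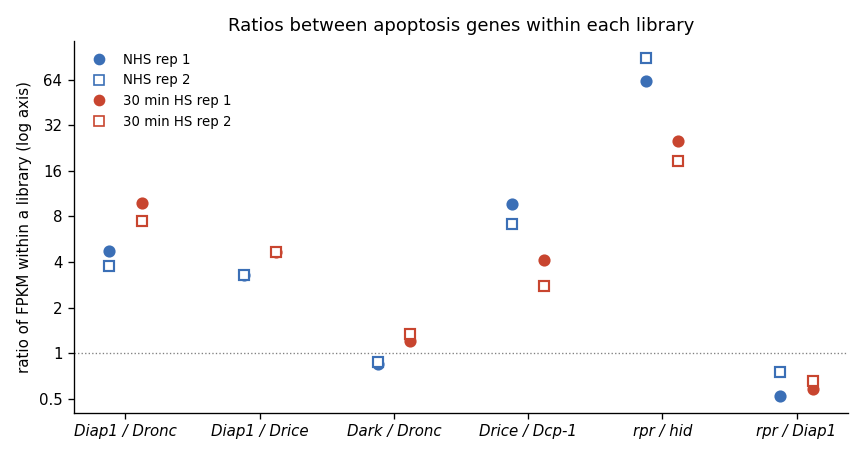
Ratio between the FPKM of pairs of apoptosis genes within each library (vertical axis, log scale; blue, NHS; red, 30 min HS; circle, replicate 1; square, replicate 2), with a dotted line at a ratio of 1. *Diap1* to *Dronc*, *Diap1* to *Drice* and *Dark* to *Dronc* lie higher after HS, *Drice* to *Dcp-1* and *rpr* to *hid* lie lower, and *rpr* to *Diap1* overlaps.

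The genes whose pattern over the 4 libraries was nearest to that of *Dronc* were sought among all tested genes by the Euclidean distance between log2(FPKM + 1) values centred on each gene's mean. The nearest was *vir-1*, a gene named for its induction by virus infection, at a distance of 0.0929. Its level was 715 and 836 FPKM in NHS cells and 305 and 321 FPKM after HS. It was followed by *CG9168* (distance 0.130), *GlcAT-S*, which encodes a glucuronyltransferase (0.139), *CG11396* (0.161) and *CG30281* (0.163). The log2 fold changes of the 5 genes lay between -1.44 and -1.16, near that of *Dronc*, as selection by a small distance requires. *CG9168*, at 4.93 and 5.69 FPKM before HS, was far scarcer than *vir-1*.

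Around the 10 apoptosis genes, 45 further cell death genes were listed by role, of which 41 were found in the table and 33 were tested. The genes *Bruce*, *Cyt-c-p*, *br* and *lola* were not analysed here. Of the 33, 0 rose and 1 fell, against 1.75% and 1.56% of all tested genes. At an unadjusted p under 0.05, 2 were higher and 10 were lower after HS, against 7.42% and 10.5% of all tested genes. Their median log2 fold change was -0.10.

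The 1 gene that fell was *drpr* (draper), which encodes a receptor by which phagocytes take up dying cells. It stood at 35.6 and 39.8 FPKM in NHS cells and at 21.4 and 22.1 FPKM after HS, with no overlap. It averaged 37.7 ± 2.95 FPKM before and 21.8 ± 0.544 FPKM after HS (SD, n = 2 each), with a log2 fold change of -0.76 (SE 0.11, limma adjusted p = 0.0464). The call was close to the threshold. It was lost with quantile normalization (adjusted p = 0.0666), without a trend in the variance prior (0.0536) and on leaving out any 1 of the 4 libraries (0.213 to 0.288). *ced-6*, which encodes an adaptor acting with Draper in engulfment, stood at 121 and 103 FPKM before and at 160 and 150 FPKM after HS, in the other direction (log2 fold change 0.47, limma adjusted p = 0.147).

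*EcR*, the ecdysone receptor gene, whose product controls *rpr* and *hid* during metamorphosis, had the largest positive difference of the list. It was measured at 14.3 and 13.1 FPKM in NHS cells and 19.2 and 20.2 FPKM after HS (log2 fold change 0.50, limma adjusted p = 0.103). The largest negative differences besides *drpr* belonged to *shn* (schnurri), a zinc-finger repressor gene, and *foxo*, a stress-responsive transcription factor gene. *shn* stood at 55.3 and 67.3 FPKM before and 26.5 and 38.8 FPKM after HS (log2 fold change -0.90, limma adjusted p = 0.136). *foxo* stood at 61.0 and 51.9 FPKM before and 41.6 and 32.1 FPKM after HS (log2 fold change -0.61, limma adjusted p = 0.174). None of the 3 passed the test, and the libraries of the conditions did not overlap, as in 46.1% of all tested genes.

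The most abundant genes of the list were *eff*, which encodes a ubiquitin-conjugating enzyme, and *Tango7*, listed as *eIF3m*, whose product is a translation initiation factor subunit also known as a partner of Dronc. *eff* averaged 784 ± 69.8 FPKM before and 732 ± 51.1 FPKM after HS, and *Tango7* averaged 222 ± 16.3 and 236 ± 24.9 FPKM (SD, n = 2 each). In both genes the conditions overlapped. All 7 genes of ubiquitin control were tested, and 0 of them passed, also at an unadjusted p under 0.05. Of all tested genes, 3.31% passed at the adjusted and 17.9% at the unadjusted threshold, and 7 genes are too few to set against these shares.

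The other caspases split by level. *Dredd*, the caspase of the antibacterial Imd pathway, stood at 21.6 and 24.2 FPKM before and 15.7 and 17.9 FPKM after HS, and *Strica* at 67.6 and 56.4 before and 45.8 and 35.9 FPKM after HS. Neither passed the test (log2 fold change -0.43, limma adjusted p = 0.183, and -0.60, limma adjusted p = 0.182). *Damm* and *Decay* were under 0.15 FPKM in every library and were not tested. Thus 4 of the 5 tested caspase genes had lower values after HS and *Dcp-1* higher ones, and of the 5 only *Dronc* passed. Of all tested genes, 53.4% had a log2 fold change below 0 and 1.56% fell.

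*Diap2*, the other tested inhibitor-of-apoptosis gene with a ubiquitin ligase function, stood at 80.9 and 82.3 FPKM before and at 60.0 and 56.1 FPKM after HS (log2 fold change -0.48, limma adjusted p = 0.0891). *Debcl*, the Bcl-2 family gene with a pro-apoptotic role, stood at 44.7 and 46.3 before and 38.5 and 37.1 FPKM after HS (log2 fold change -0.26, limma adjusted p = 0.253), and was thus far more abundant than *Buffy* in every library. *Fadd*, the adaptor gene of *Dredd*, stood at 41.2 and 44.8 before and 27.8 and 28.6 FPKM after HS (log2 fold change -0.59, limma adjusted p = 0.0659). In these 3 genes, as in 25.6% of all tested genes, both HS libraries lay below both NHS libraries, and the test was not passed.

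*p53*, the gene of a transcription factor that activates *rpr*, *hid* and *skl* after radiation, was measured at 13.4 and 13.2 FPKM before and 16.7 and 13.0 FPKM after HS, with overlap (log2 fold change 0.14, 95% confidence interval -0.27 to 0.54, limma adjusted p = 0.74). *yki*, which encodes the Hippo pathway coactivator of *Diap1*, stood at 132 and 137 before and 126 and 130 FPKM after HS (log2 fold change -0.07, 95% confidence interval -0.31 to 0.16, limma adjusted p = 0.78). *sd*, another transcription regulator of the list, stood at 68.0 and 67.1 before and 49.1 and 47.1 FPKM after HS (log2 fold change -0.48, limma adjusted p = 0.0848). Of the 9 tested transcription regulators, 5 had a log2 fold change above 0, 4 had one below 0, and 0 passed. Over all tested genes, 53.4% were below 0 and 3.31% passed.

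**Figure D4:**
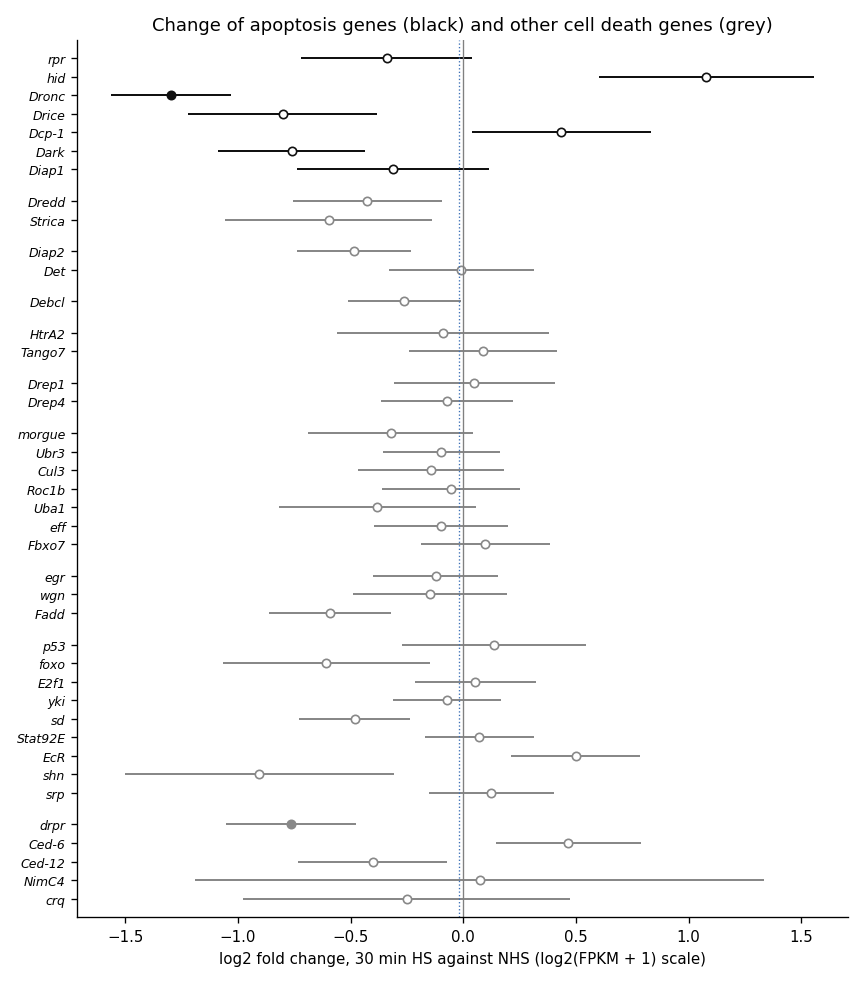
log2 fold change between 30 min HS and NHS with its 95% confidence interval (limma) for the 7 tested apoptosis genes (black) and the 33 other tested cell death genes (grey, grouped by role); filled points had an adjusted p under 0.05, and the dotted line is the median of all tested genes (-0.02). *Dronc* and *drpr* are the filled points, and *hid* lies farthest to the right.

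Because FPKM are relative, a different scaling of the libraries moves every gene together. Rescaling to the same total FPKM moved the median log2 fold change of all tested genes to -0.16, and rescaling to the mRNAs of ribosomal proteins gave a median of -0.25. Relative to these medians the log2 fold change of *Dronc* was -1.28 and -1.29, that of *hid* 1.13 and 1.14, that of *Drice* -0.79 and -0.79, and that of *Dark* -0.75 and -0.75. *Dcp-1* stood at 0.46 and 0.46, *rpr* at -0.33 and -0.33, and *Diap1* at -0.30 and -0.31. Both scalings multiply whole libraries, so these distances from the median could hardly move. Quantile normalization, which does not, put the median at 0.01 and the distance from it at 0.85 for *hid*, -1.24 for *Dronc*, -0.72 for *Drice*, -0.70 for *Dark*, 0.43 for *Dcp-1*, -0.24 for *rpr* and -0.22 for *Diap1*.

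**Figure D5:**
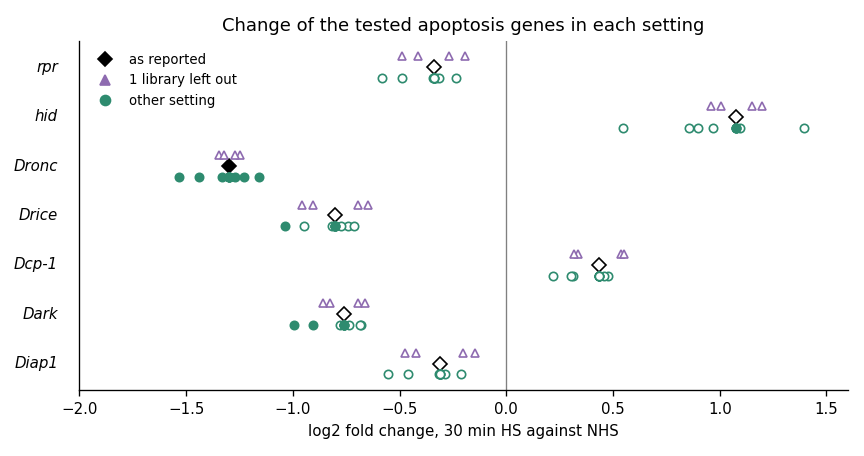
log2 fold change of the 7 tested apoptosis genes as reported (diamonds), with 1 library left out (triangles) and in the other settings (circles); filled symbols had an adjusted p under 0.05. No gene crosses 0 in any setting, and *Dronc* is filled in all settings except those that leave out a library.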

How the data were processed

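Poly(A)-selected RNA of S2 cells was sequenced as 2 NHS and 2 HS libraries. After adapter removal, the authors used TopHat2 (library type fr-firststrand) to align reads to dm3 and deposited FPKM per gene, computed with Cuffnorm without pooling replicates. The Cuffnorm scaling option and the tool versions are not given in the sources used here. Conditions came from the sample labels and replicate numbers from column names; 0 columns were left unmapped. Symbols were found for 14925 of 15602 identifiers in the Ensembl annotation of BDGP6, which is not the authors' build, so no coordinates are printed.

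Genes that averaged 1 FPKM or more were tested on log2(FPKM + 1) with limma 3.58.1 in R 4.3.3 (lmFit, then eBayes with a trend, no term besides condition, Benjamini-Hochberg adjustment). Fold changes on this scale understate those of scarce mRNAs. The code was tested on simulated data with 200 genes changed. Other steps used Python 3.11.15 with pandas 2.3.3, numpy 2.4.6, matplotlib 3.10.9 and scipy 1.17.1. Fragment numbers were estimated from the lowest FPKM and BDGP6 transcript lengths and are approximate.

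The 10 genes and the lists were chosen with earlier results of these data known. The text names all 10 and any other listed cell death gene called at an adjusted p under 0.05. It also names the 2 largest positive and 2 largest negative differences and the 2 most abundant of that list. Named too are the 5 tested genes nearest to the member with the smallest p, and 3 chaperone genes. *Dredd*, *Strica*, *Damm*, *Decay*, *Diap2*, *Debcl*, *Fadd*, *p53*, *yki* and *sd* were named after their values were seen. So were the engulfment and haemocyte genes of the closing section. Other pseudocounts, minimum levels, scalings, variance settings, a replicate block, a stricter threshold and the removal of each library were tried. PRO-seq samples were not analysed here.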

Additional observations from a re-analysis of the deposited data

How the results depend on the processing

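The counts of apoptosis genes called were 0 higher and 1 lower. Without a trend in the variance prior 1 was higher, with robust variance moderation 1 was higher and 2 lower, with libraries rescaled to the same total FPKM 2 were lower, and with rescaling to the ribosomal protein mRNAs 3 were lower. With any 1 library left out, 0 were called lower, and at an adjusted p under 0.001 also 0. Of the other cell death genes, 0 were higher and 1 lower as reported, 4 were lower with the same total, 7 with the ribosomal protein mRNAs, 0 with quantile normalization or without the trend, 0 with any 1 library left out, and 0 at an adjusted p under 0.001. Why the calls moved was not tested. The replicate numbers come from column names, and the sources do not say whether libraries of the same number shared a culture or day; over 7815 genes, the deviations of same-numbered libraries from their group means had a correlation of 0.22. With the replicate block, 1 apoptosis gene was higher (*hid*, limma adjusted p = 0.0374) and 3 were lower (*Dronc* 0.00434, *Drice* 0.0109, *Dark* 0.0124), 2 other cell death genes were higher and 9 lower, and over all tested genes 334 rose and 582 fell, in place of 137 and 122. Over all tested genes, 178 rose and 190 fell with robust moderation, 132 and 252 with the same total, 142 and 446 with the ribosomal protein mRNAs, 192 and 104 without the trend, 280 and 116 without a minimum, 60 and 89 with a minimum of 5 FPKM, and from 16 to 36 and from 6 to 34 with 1 library left out. Of 111 comparisons of a tested apoptosis gene with its reported value, 97 kept direction and side of the threshold, 9 newly passed, 5 no longer passed (all of *Dronc*) and 0 changed sign. At these depths *grim*, *skl* and *Buffy* are limited by the number of fragments, and *hid* by about 46.4 to 239 fragments per library.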

Other observations

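Among the genes for the uptake of dying cells, *NimC4* and *crq*, which encode receptors of phagocytes, differed more between replicates than between conditions. *NimC4* stood at 15.3 and 7.86 FPKM in NHS cells and at 17.1 and 7.83 FPKM after HS, higher in replicate 1 of both conditions. *crq* stood at 89.7 and 131 FPKM before and at 75.9 and 109 FPKM after HS, higher in replicate 2 of both. The haemocyte marker *Hml*, at 5.69 and 22.5 FPKM before and 4.45 and 20.7 FPKM after HS, was also higher in replicate 2, and *He*, at 5.97 and 1.09 before and 5.36 and 1.21 FPKM after HS, in replicate 1. Of the apoptosis genes, *Drice* and *Diap1* were lower and *Dronc*, *Dcp-1* and *Dark* higher in replicate 2 of both conditions, while *rpr* and *hid* went opposite ways in NHS and HS cells.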
